A study of Mus musculus with 7 samples.

Results

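The Hox genes of the mouse were followed in basal cells of the lactating mammary gland, at 35 gene rows among the 56440 gene models of the deposited table. The members were every row whose symbol is a single Hox gene of clusters A to D, with a suffix beginning with Mir dropped. There were 11 rows of HoxA, 8 of HoxB, 9 of HoxC and 7 of HoxD, and no symbol had more than 1 row. The row of Hoxa7 also carries the name of the long noncoding RNA Mira, so its reads may come from both. A row shared by Hoxb7 and Hoxb8 and another shared by Hoxd3 and Hoxd4 name more than 1 Hox gene and are not members.

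RNA was sequenced from cells that had been digested from fresh mammary tissue with trypsin and sorted by flow cytometry, in mice on day 2 of lactation. Libraries of 4 controls (Ctrl, titled Blg negative) were compared with 3 of a double mutant (a3a6KO, titled Blg positive), whose name gives the integrin subunits α3 and α6. From what is known of the study, Blg is Cre recombinase driven by the beta-lactoglobulin promoter and intended for luminal cells, so that the sorted basal cells were neighbours of the targeted cells. Every mutant and no control was Blg positive, so the effect of Blg and that of the integrins cannot be told apart. The sources used here give neither the integrin alleles of the controls nor the age or strain of the mice. The submitters call the libraries biological replicates.

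Hox genes encode transcription factors that bind DNA through a homeodomain. They lie in 4 clusters, and within a cluster their order matches the order in which they are used along the axis from head to tail. Genes at the same place in different clusters, the paralogues, share a number and have similar homeodomains. Low numbers are used toward the head and high numbers toward the tail, limbs and genital region, and adult cells often keep part of the pattern of their place of origin. In the mammary gland the group 9 genes Hoxa9, Hoxb9 and Hoxd9 are known for growth of the gland in pregnancy.

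The libraries of sorted basal cells held reads of Hox genes numbered 1 to 10 and of none numbered 11 to 13. Of the 26 members numbered 1 to 10, 25 had at least 1 read, Hoxd1 being the exception. The 9 members numbered 11 to 13 (Hoxa11, Hoxa13, Hoxb13, Hoxc11, Hoxc12, Hoxc13, Hoxd11, Hoxd12 and Hoxd13) were at 0 in all 7 libraries. The same limit therefore appeared in each of the clusters A, C and D, between genes 10 and 11, while cluster B has no member between 9 and 13. In A and C the step to 0 started from low counts, as Hoxa10 had 28 reads in all and Hoxc10 40. Of all 56440 gene models, 31483 had a value above 0. All libraries together held 109563728 reads, and a count of 0 allows up to 3 reads, or 0.0274 RPM. This floor covers counting error only, and it takes the reads as independent, which they may not be. Evx1 and Evx2, homeobox genes that lie beyond Hoxa13 and Hoxd13, were also at 0 in every library.

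**Figure D1:**
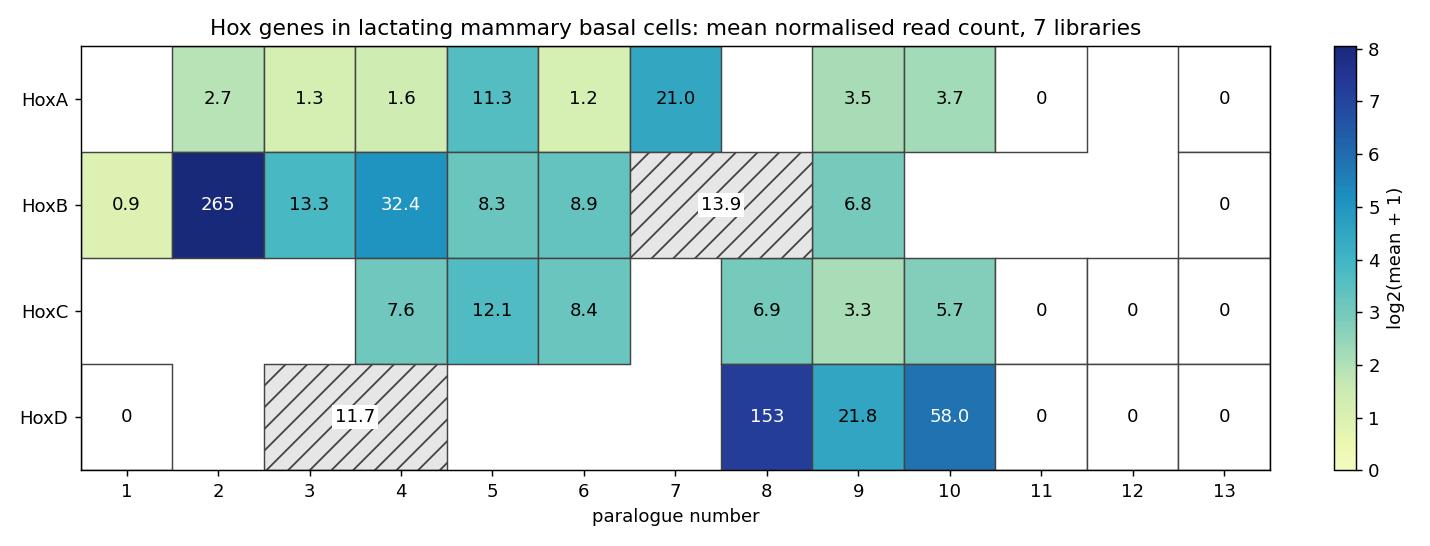
Mean normalised read count over the 7 libraries for each Hox gene, by cluster (rows) and paralogue number (columns), coloured on a log2(mean + 1) scale; white boxes with 0 had no read, hatched boxes are rows shared by neighbouring genes, and unboxed places have no row or are not shown. Genes 11 to 13 are at 0 in every cluster, and Hoxb2 (265), Hoxd8 (153) and Hoxd10 (57.95) stand highest.

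The HoxD cluster shows this limit most directly, because Hoxd8, Hoxd9 and Hoxd10 were among the 5 highest members by normalised read count and their neighbour Hoxd11 had no read. The 250 bases before the annotated starts of these neighbours are printed from RefSeq (GRCm38.p6, the build of the files' mm10), 5′ to 3′ on the plus strand, with each CpG in capitals. Hoxd11 has 2 annotated starts. The RefSeq start of Hoxd9 lies 234 bases inside the model of the deposited table, so most of its window overlaps that model. The second start of Hoxd11 lies 2766 bases inside the model of that gene, so its window lies wholly within the model. Hoxd10 had 407 reads in all and 20 CpGs in its window, and the first Hoxd11 window has 2.
Hoxd8, chr2:74704365-74704614: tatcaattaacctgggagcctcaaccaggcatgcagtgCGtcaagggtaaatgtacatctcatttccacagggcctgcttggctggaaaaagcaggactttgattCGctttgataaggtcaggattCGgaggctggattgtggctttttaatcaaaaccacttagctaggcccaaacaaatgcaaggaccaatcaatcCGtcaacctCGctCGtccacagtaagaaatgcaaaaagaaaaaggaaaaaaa
Hoxd9, chr2:74697513-74697762: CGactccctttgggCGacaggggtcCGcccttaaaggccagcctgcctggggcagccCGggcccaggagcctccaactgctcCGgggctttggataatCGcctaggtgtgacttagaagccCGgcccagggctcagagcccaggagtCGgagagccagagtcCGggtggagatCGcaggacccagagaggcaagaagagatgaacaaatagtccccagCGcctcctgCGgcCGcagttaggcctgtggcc
Hoxd10, chr2:74691641-74691890: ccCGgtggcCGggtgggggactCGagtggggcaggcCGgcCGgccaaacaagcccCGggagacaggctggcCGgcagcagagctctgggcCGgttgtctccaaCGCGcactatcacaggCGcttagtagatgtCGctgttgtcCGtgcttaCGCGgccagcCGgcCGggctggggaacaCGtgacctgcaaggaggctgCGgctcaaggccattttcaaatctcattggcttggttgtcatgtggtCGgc
Hoxd11, first start, chr2:74679308-74679557: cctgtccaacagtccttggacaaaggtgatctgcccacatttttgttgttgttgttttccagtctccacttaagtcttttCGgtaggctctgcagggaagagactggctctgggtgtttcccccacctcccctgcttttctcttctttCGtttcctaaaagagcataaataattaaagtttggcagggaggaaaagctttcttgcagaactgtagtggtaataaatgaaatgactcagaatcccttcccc
Hoxd11, second start, chr2:74682073-74682322: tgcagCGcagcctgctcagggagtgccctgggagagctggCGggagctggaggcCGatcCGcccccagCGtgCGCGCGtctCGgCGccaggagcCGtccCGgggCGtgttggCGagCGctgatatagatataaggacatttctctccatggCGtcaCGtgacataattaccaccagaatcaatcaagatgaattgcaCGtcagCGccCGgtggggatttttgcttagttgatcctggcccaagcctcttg

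CpG-rich and CpG-poor windows stood on both sides of the limit. Hoxd8, with 1143 reads, has 6 CpGs and a GC content of 44.4%, while the second Hoxd11 window has 20 CpGs and 60.4%. Over the 21 windows that RefSeq gives for 19 of the 35 members, 14 windows of genes with reads had a median of 10.5 CpGs (range 3 to 28) and 7 windows of genes at 0 a median of 20 (range 2 to 35). Most of the 14 belong to genes with only 6 to 52 reads in all. Hoxb2, Hoxb3, Hoxc5 and Hoxc6 had reads but no window, so the 14 do not stand for the genes with most reads. Some of these windows lie wholly inside the gene's model in the deposited table, among them those of Hoxc4 and Hoxa7. The median of all 32851 promoter windows of this length was 6. CCAAT, a common promoter motif searched on both strands, was in 7 of the 14 windows with reads and 4 of the 7 at 0, against 33.85% of all windows. TATAAA was in 1 of the 14 and 1 of the 7, against 12.37%. TGATNNAT, a site of HOX with PBX proteins in which N is any base, was in 2 of the 14 and 1 of the 7, against 7.683%. TAATTA, a homeodomain site, was in 2 windows, both of Hoxd11, against 4.84% of all. These matches describe letters only.

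Most Hox reads came from a few genes. The 35 members had 4784 reads in all, 43.7 RPM, and the cluster sums differed widely. HoxB held 51.0% of these reads and HoxD 35.7%, and HoxA and HoxC 6.84% and 6.50%. Hoxb2 alone gave 40.3% and Hoxd8 23.9%. Together this pair made up 51.9% to 66.4% of the summed Hox value in each library. By paralogue number, groups 1 to 4 held 49.6% of Hox reads, groups 5 to 8 35.2% and groups 9 and 10 15.1%.

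A normalised read count of 10 or more in 3 or more libraries was required for testing, and 10 members met it, namely Hoxa5, Hoxa7, Hoxb2, Hoxb3, Hoxb4, Hoxc5, Hoxc6, Hoxd8, Hoxd9 and Hoxd10. The other 15 with reads had means of 0.894 to 8.88 over the libraries and 6 to 64 reads each. Of the 145 counts above 0 over all members, 109 (75.2%) were even, against 61.8% to 63.8% of counts from 1 to 20 in the whole libraries. The Hox share also takes in counts above 20, so these shares are not over the same range. The low values rest on few counts that may not be independent.

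Hoxb2 (GSMG0005831, chromosome 11, 96351632 to 96354016, plus strand, mm10), known for patterning the hindbrain, was the highest Hox gene. Its normalised read counts were 364, 234, 243 and 238 in Ctrl replicates 1 to 4 and 313, 297 and 164 in a3a6KO replicates 1 to 3. The Ctrl mean was 270.1 ± 63.0 (SD, n = 4) and the mutant mean 258 ± 82.0 (SD, n = 3). Ctrl replicate 1 stood above the other controls, a3a6KO replicate 3 was the lowest library, and the groups overlapped. Per kb of its longest annotated transcript, Hoxb2 had 86.2 ± 20.1 in Ctrl, the 60.4th percentile of the 15345 coding genes above 0. That transcript has 3134 bases, more than the whole span of the counted model, so this level and percentile may be too low.

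Part of the Hoxb2 signal cannot be assigned to a strand. An unnamed minus-strand model (GSMG0007286, chromosome 11, 96350525 to 96353659) shares 2028 bases of its span with Hoxb2, and lies inside the antisense gene Hoxb3os of GENCODE M21. Its values were 216, 144, 106 and 131 in the controls and 167, 240 and 112 in the mutants. It stood below Hoxb2 in every library, at 0.434 to 0.809 of it. Exons of Hoxb3os cover 27.3% of the exonic bases of Hoxb2 and 52.9% of those of Hoxb3. The GENCODE exons of Hoxb2 reach beyond its counted model, so its share is also taken over bases outside that model. The sources used here do not say whether counting used strand, so reads of both strands cannot be told apart in the shared bases.

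Hoxb3 (GSMG0005830, chromosome 11, 96323126 to 96347930, plus strand), which acts beside Hoxb2 in the hindbrain and pharyngeal region, shares its span with a transcript of the other strand. Hoxb3 had 20.1, 16.2, 11.9 and 16.6 in the controls and 9.94, 7.91 and 10.7 in the mutants. Gm11536 (GSMG0007285, chromosome 11, 96335433 to 96342110, minus strand), whose whole span of 6678 bases lies within that of Hoxb3, had 73.3, 50.9, 47.7 and 31.0 in the controls and 41.4, 36.9 and 19.6 in the mutants. GENCODE gives the pair no shared exon. The normalised read count of Gm11536, not corrected for length, was 1.83 to 4.67 times that of Hoxb3, and above it in 7 of 7 libraries. Its log2 fold change was −0.63 (SE 0.38, limma adjusted p = 0.804), and that of GSMG0007286 0.20 (SE 0.31, adjusted p = 0.922).

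**Figure D2:**
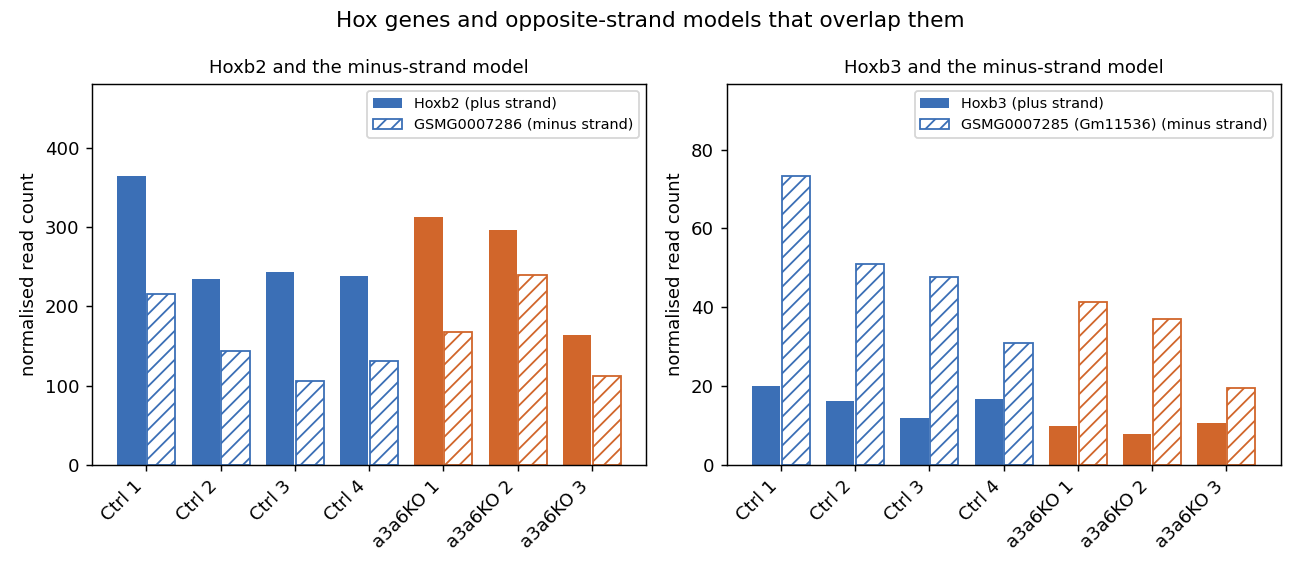
Normalised read count in each library (Ctrl blue, a3a6KO orange) of Hoxb2 and Hoxb3 (filled bars) and of the minus-strand models that overlap them (hatched bars); each bar is 1 library. The model at Hoxb2 stays below the gene in all 7 libraries, and Gm11536 stays above Hoxb3 in all 7.

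Hoxb4 (GSMG0005829, chromosome 11, 96318267 to 96321638, plus strand), known for its role in blood stem cells, varied within both groups. It had 35.1, 19.4, 48.7 and 21.9 in the controls and 65.5, 18.5 and 17.8 in the mutants. The highest and the lowest of the 7 values were both in a3a6KO. The other HoxB members stayed low. Hoxb5 and Hoxb6 averaged 7.20 and 8.94 in Ctrl and 9.79 and 8.79 in a3a6KO, and Hoxb1, a gene of the early hindbrain, 0.906 and 0.879. The shared row of Hoxb7 and Hoxb8 had 12.7 ± 5.28 (SD, n = 4) and 15.6 ± 2.27 (SD, n = 3).

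Hoxd8 (GSMG0021239, chromosome 2, 74704615 to 74707938, plus strand), a gene of the trunk region, was the highest of HoxD. Its values were 59.2, 133, 185 and 199 in the controls and 219, 177 and 103 in the mutants, averaging 144 ± 63.2 (SD, n = 4) in the controls and 166 ± 58.5 (SD, n = 3) in the mutants. Ctrl replicate 1 had the lowest Hoxd8 and the highest Hoxb2, and the groups overlapped. Hoxd9 (GSMG0021238, 74697529 to 74700208) had 28.1, 16.2, 9.18 and 31.8 in the controls and 19.1, 30.3 and 17.8 in the mutants.

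Hoxd10 (GSMG0021237, chromosome 2, 74691889 to 74695106, plus strand), a gene of the hindlimb and lumbar region, varied little relative to its mean. It had 44.2, 43.6, 50.5 and 59.0 in the controls and 71.3, 65.9 and 71.2 in the mutants. Each a3a6KO library was above each control. The mean was 49.3 ± 7.16 (SD, n = 4) over the controls and 69.5 ± 3.05 (SD, n = 3) over the mutants. Within HoxD the reads came from the stretch Hoxd8 to Hoxd10, bounded by Hoxd11 at 0 on one side. On the other side the shared row of Hoxd3 and Hoxd4 had a Ctrl mean of 12.7 ± 7.93 (SD, n = 4) and a mutant mean of 10.3 ± 2.28 (SD, n = 3), and Hoxd1 was at 0.

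HoxA had few reads. Hoxa7 (GSMG0033030, chromosome 6, 52214491 to 52220395, minus strand), a gene of thoracic patterning, was its highest member, with 27.1, 6.46, 20.2 and 15.9 in the controls and 25.7, 35.6 and 16.01 in the mutants. Hoxaas3, an antisense RNA that covers 20.4% of its exonic bases, had at most 4.54 in any library. Hoxa5 (GSMG0033028, chromosome 6, 52201754 to 52204587, minus strand), known for lung and mammary epithelium, had 11.05, 14.5, 1.84 and 10.6 in the controls and 3.31, 18.5 and 19.6 in the mutants. Hoxa5 was lowest in Ctrl replicate 3 and a3a6KO replicate 1. Hoxa2 and Hoxa4 were at 0 in 3 of 4 controls.

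In HoxC the reads were spread over neighbouring genes with no leading member. Hoxc5 (GSMG0013708, chromosome 15, 103014007 to 103017429, plus strand) had 8.03, 6.46, 20.2 and 6.05 in the controls and 14.9, 18.5 and 10.7 in the mutants. Hoxc6 (GSMG0013707, chromosome 15, 103009562 to 103011881, plus strand), a gene of the thoracic region expressed in mammary tissue, had 10.04, 1.62, 16.5 and 2.27 in the controls and 14.1, 10.5 and 3.56 in the mutants. Ctrl replicate 3 was the highest control for both, and for Hoxc8, known from the mammary line of the embryo, which had 2.01, 1.62, 23.9 and 6.05 in the controls and 4.97, 7.91 and 1.78 in the mutants. The HoxC sum was 77.1 in that library, against 26.5 to 58.0 in the other 6.

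The 4 genes of group 9 all had reads, with Hoxd9 the highest, also per kb. In Ctrl, Hoxd9 averaged 21.3 ± 10.5, Hoxb9 3.44, Hoxa9 3.29 and Hoxc9 3.21, and in a3a6KO 22.4 ± 6.90, 11.4, 3.74 and 3.497. Hoxb9 had 0, 8.89, 1.84 and 3.03 in the controls and 4.97, 18.5 and 10.7 in the mutants, so that the groups overlapped. Of the 3 genes of group 10, Hoxa10 and Hoxc10 averaged 3.42 and 5.62 in Ctrl, where Hoxd10 had 49.3.

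**Figure D3:**
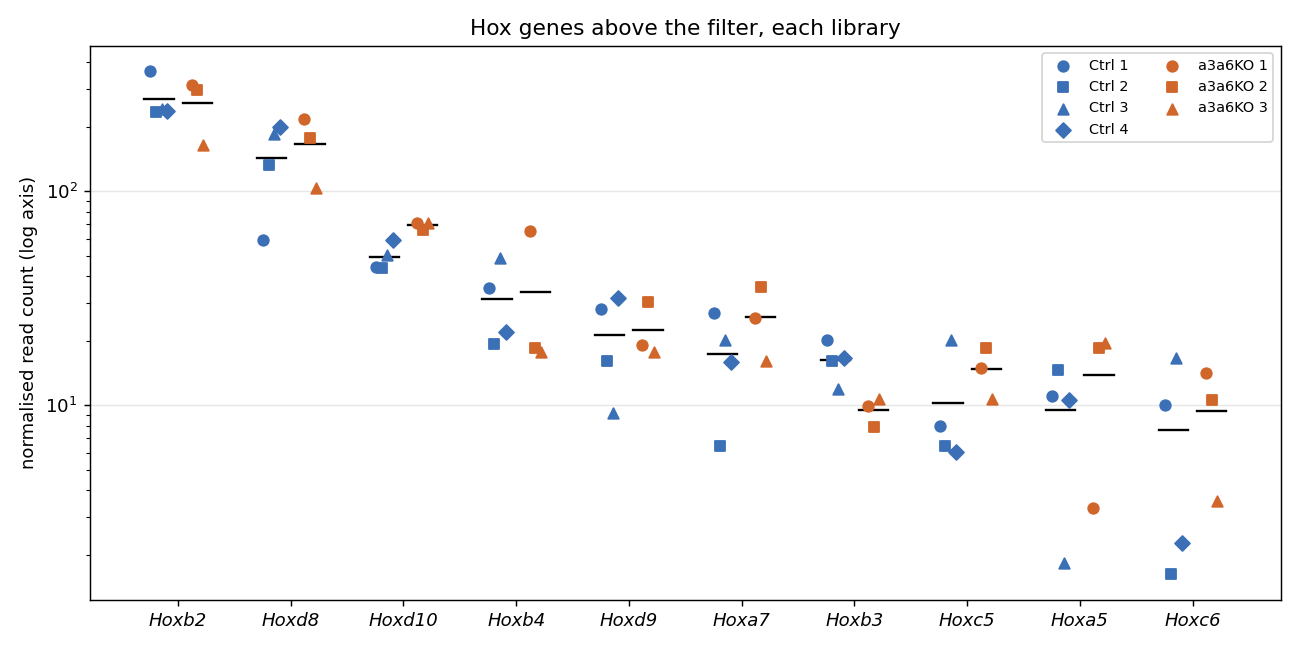
Normalised read count on a log axis for the 10 Hox genes above the filter; each point is 1 library (Ctrl blue, a3a6KO orange, symbols for replicates) and each black line a group mean. The groups are apart for Hoxd10 (highest control 59.0, lowest mutant 65.9) and Hoxb3 (lowest control 11.9, highest mutant 10.7) and overlap for the other 8.

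Levels can be set beside each other only per length. Per kb of the longest GENCODE M21 transcript, the Ctrl levels ran from Hoxb2 (86.2) over Hoxd8 (54.6), Hoxd10 (27.2), Hoxb4 (12.2), Hoxd9 (9.98), Hoxa7 (8.57), Hoxb3 (5.08), Hoxa5 (5.06) and Hoxc6 (4.82) to Hoxc5 (3.48). Hoxb2 was above Hoxd8 in 7 of 7 libraries, Hoxd8 above Hoxd10 in 5 and Hoxd10 above Hoxb4 in 7. From Hoxb4 downward each pair of neighbours differed by less than the larger of their SDs in Ctrl. Among these, Hoxa7 was above Hoxb3 in 6 of 7 libraries, and for the other pairs the gene with the higher Ctrl level was above in only 3 or 4 of 7. Per kb of coding length the first 4 kept their places, but Hoxb2 was above Hoxd8 in 6 and Hoxd10 above Hoxb4 in 4 of 7 libraries. The length of the transcripts made in these cells is not known. For Hoxb2 the transcript length used exceeds the span of the counted model, so its level per kb may be too low.

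No Hox gene passed the test between a3a6KO and Ctrl. In limma, 0 of the 10 members were called at an adjusted p under 0.05, against 0.0% of all 16889 genes tested. At an unadjusted p under 0.05 the count was also 0 of 10, in limma, in edgeR's quasi-likelihood test and in DESeq2, against 6.32%, 6.07% and 6.69% of all genes. After adjustment, edgeR called 0.0% of all genes and DESeq2 0.456% (77 genes), with 0 of the 10 among them, although DESeq2 set no adjusted p for the 6 lowest. The 10 members had 7 log2 fold changes above 0 and 3 below, where 49.5% of all genes were above 0. Hoxb4, one of the 3, had a higher mean in a3a6KO (33.9 ± 27.3, SD, n = 3) than in Ctrl (31.3 ± 13.49, SD, n = 4), and its fold change was 0.16 in edgeR and 0.15 in DESeq2, so its direction is not settled. The fold changes of the 10 had a median of 0.36, ranging from −0.70 to 0.62, beside −0.0040 over all genes tested. The median was 0.18 without Ctrl replicate 2, 0.21 without a3a6KO replicate 2 and 0.22 without a3a6KO replicate 1. Unless another tool or setting is named, fold changes compare a3a6KO with Ctrl as differences of mean log2(value + 1). The added 1 draws the change of a low gene toward 0, yet a mean of logs can also exceed the estimate of a count model, as for Hoxc6 (0.54 in limma and 0.39 in edgeR) and Hoxd9 (0.17 and 0.066).

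Hoxd10 had a log2 fold change of 0.49 (SE 0.22, 95% interval −0.0080 to 0.998, limma unadjusted p = 0.0530, adjusted p = 0.785). It was positive under all 16 alternatives, at 0.44 to 0.58. Hoxb3 had −0.70 (SE 0.39, interval −1.57 to 0.18, adjusted p = 0.797). These were the 2 members whose groups did not overlap, 1 in each direction, where 7.51% of all genes tested had no overlap, 4.0% higher and 3.51% lower in a3a6KO. The opposite-strand limits given for Hoxb3 apply to its difference as well.

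The interval was narrower for Hoxb2 than for Hoxd8. Hoxb2 had −0.098 (SE 0.26, interval −0.70 to 0.50) and Hoxd8 0.28 (SE 0.43, interval −0.69 to 1.26). Without Ctrl replicate 1, the library with the most Hoxb2 and the least Hoxd8, these turned to 0.054 and −0.095. Hoxb2 was 0.20 without a3a6KO replicate 3. The intervals of the lower genes were also wide, as for Hoxa7 (0.62, −0.54 to 1.79), Hoxc5 (0.62, −0.55 to 1.79), Hoxa5 (0.44, −1.35 to 2.22), Hoxc6 (0.54, −1.32 to 2.39), Hoxd9 (0.17, −0.91 to 1.25) and Hoxb4 (−0.064, −1.26 to 1.13). The intervals of Hoxa5, Hoxb4 and Hoxc6 included a 2-fold change in either direction, those of Hoxa7, Hoxc5, Hoxd8 and Hoxd9 a 2-fold increase, and that of Hoxb3 a 2-fold decrease.

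**Figure D4:**
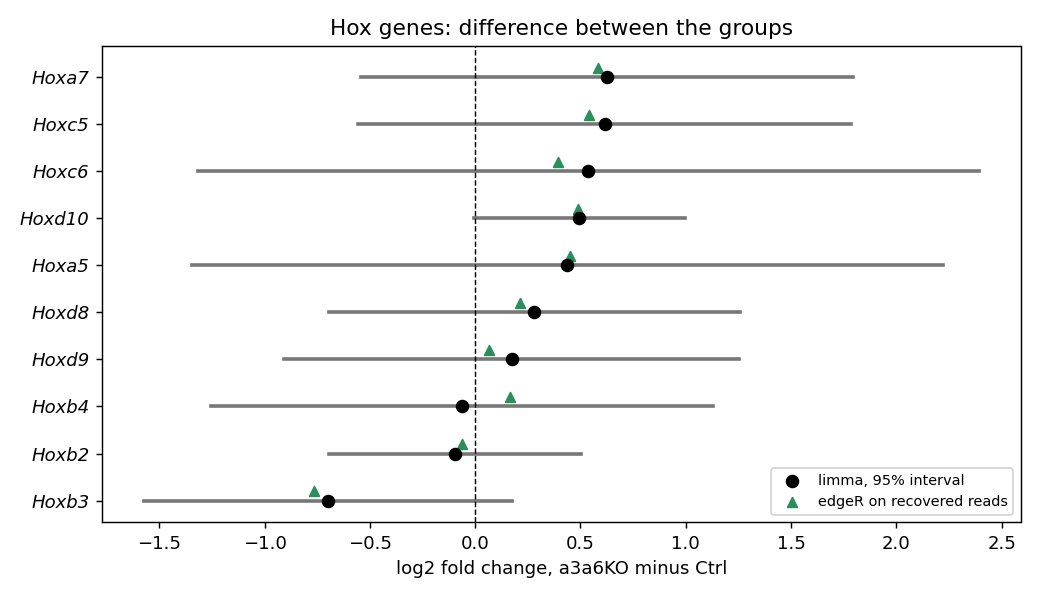
Log2 fold change (a3a6KO minus Ctrl) of the 10 Hox genes above the filter; black points and grey bars are limma's estimates with 95% intervals, and green triangles are edgeR's estimates on recovered reads. Every interval includes 0, that of Hoxd10 (−0.0080 to 0.998) by the smallest margin.

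Without the filter, the 25 members with reads could be tested among 31483 genes. None was called in limma, against 0.0% of these genes, and 0 had an unadjusted p under 0.05, against 5.64%. Hoxb9 had the largest fold change, 1.76 (SE 0.82, adjusted p = 0.875), from means of 3.44 and 11.4. Of the 25, 16 were above 0 and the median was 0.28, beside −0.023 over all genes.

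The libraries held 9368418 to 21548279 reads, the fewest in a3a6KO replicate 3. Both targeted genes were read in every basal library. Itga3 stood at 465 to 719 in Ctrl and 494 to 818 in a3a6KO, with a log2 fold change of 0.073 (SE 0.21). Itga6 stood at 7764 to 10603 and 8343 to 9083, with −0.098 (SE 0.15). Neither passed in limma (adjusted p = 0.955 and 0.918). As limma called 0.0% of all genes, this does not show that they were unchanged. The 8 basal markers summed to 767647 to 1050080 in Ctrl and 868520 to 973019 in a3a6KO, with 3 of 8 higher in a3a6KO. Endothelial markers summed to 4103 to 7026 in Ctrl and 9091 to 12584 in a3a6KO, with 10 of 10 higher in a3a6KO and none of the 10 at 0. All 10 had an unadjusted limma p under 0.05, against 6.32% of all genes. In 8 of the 10 the groups did not overlap, against 7.51% of all genes. After adjustment limma called 0 of the 10, against 0.0% of all genes, and DESeq2 7, against 0.456%. Fibroblast markers (7 measured) summed to 16747 to 27676 and 21120 to 31446, with 5 of 7 higher, and pericyte markers (6) to 1697 to 3233 and 2666 to 3684, with 6 of 6 higher. Luminal markers (9) summed to 111010 to 661249 and 83585 to 287891, with 3 of 9 higher. Immune markers (7) summed to 676 to 2318 and 774 to 2692, with 1 of 3 tested higher. Schwann markers (4) summed to 1015 to 2488 and 1052 to 1581, with 0 of 1 tested higher. Adipocyte markers (4) summed to 2231 to 15430 and 4813 to 18513, with 1 of 4 higher. Over all genes tested, 49.5% had a log2 fold change above 0. Fibroblasts and vessels also use Hox genes, and the part of these cells in the Hox values was not tested. In bulk RNA, fewer cells with a transcript and less of it per cell cannot be told apart.

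HOX proteins bind DNA with cofactors of the PBX, MEIS and PKNOX families, and all 9 such genes had reads. The largest normalised read counts were those of Pknox2, at 447 ± 45.7 (SD, n = 4) for the controls and 353 ± 47.6 (SD, n = 3) for the mutants, and in the same order Meis3 (439 and 477), Meis1 (189 and 197) and Pknox1 (185 and 195). Pbx2 averaged 99.2 and 109.99. Of 7 tested, 0 passed in limma, edgeR or DESeq2, and 1, Pknox2, had an unadjusted p under 0.05 (log2 fold change −0.34, SE 0.15, limma adjusted p = 0.785), against 6.32% of all genes. Their median was 0.062, with 5 above and 2 below 0.

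Polycomb proteins keep silent Hox genes off. Of the 23 genes on that list 21 were measured, and none was at 0. By normalised read count, Rbbp4 (4494 in Ctrl and 4209 in a3a6KO), Rbbp7 (4275 and 4216), the methyltransferase Ezh1 (1882 and 1535) and Phc2 (945 and 833) were the highest. Cbx2, a reader of the Polycomb mark, had 391, 214, 187 and 209 in the controls and 164, 189 and 87.2 in the mutants. Its log2 fold change was −0.78 (SE 0.33, adjusted p = 0.768 in limma). It was the 1 of 21 with an unadjusted p under 0.05, a share below the 6.32% of all genes. Cbx8, another reader, averaged 22.7 and 15.2 (−0.63, SE 0.46). None of the 21 passed in limma, edgeR or DESeq2, 8 were above and 13 below 0, and the median was −0.023. DESeq2 set no adjusted p for Phf19 and Cbx8, so these could not pass there.

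Trithorax proteins keep active Hox genes on. The list held 12 Trithorax and demethylase activators, so not all are Trithorax proteins. Among them were Ash1l (1533 and 1483), Ash2l (1126 and 1123), Kmt2a (1104 and 998) and Kdm6a (783 and 749), all levels in Ctrl and a3a6KO. The subunit Rbbp5 had 316, 329.6, 300.2 and 289 in the controls and 248, 265 and 231 in the mutants, so that the groups did not overlap, as in 7.51% of all genes (log2 fold change −0.32, SE 0.14, limma adjusted p = 0.778). It was the 1 of 12 with an unadjusted p under 0.05, against 6.32% of all genes. Kansl1 had −0.27 (SE 0.16) and Wdr5 0.19 (SE 0.14). None of the 12 passed in the 3 tools, 3 were above and 9 below 0, and the median was −0.060.

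Of the noncoding RNAs of the clusters, 16 were matched by symbol, and these were near or at 0. The minus-strand models at Hoxb2 and Hoxb3 described with those genes are not among them. Of the 16, 9 had no read in any library, among them Hotair, Hottip, Hoxa11os and the rows of Mir10a, Mir10b, Mir196a-1, Mir196a-2, Mir196b and Mir615. Hoxd3os1 was the highest of the 16, with 0 to 12.5 in single libraries, followed by Hoxaas3 (0 to 4.54), Hotairm1 (0 to 3.23) and Hoxaas2 (0 to 2.01). None passed the filter. Rows of microRNA genes in such libraries do not measure the mature microRNAs.

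Of 11 measured genes that flank the clusters, 6 passed the filter, and Evx1, Evx2 and Ttll6 were at 0. Calcoco1, beyond Hoxc13, averaged 6063 in Ctrl and 6456 in a3a6KO, and Hibadh, beyond Hoxa13 and Evx1, 1153 and 1122. Smug1, beyond Hoxc4, had 512 and 584, Mtx2, beyond Hoxd1, 466 and 483, Cbx5 243 and 280, and Skap2, beside HoxA, 284 and 324. Of 6 tested, 0 passed in limma, edgeR or DESeq2, with 5 above 0, 1 below and a median of 0.13. The ParaHox and Cdx genes (Cdx1, Cdx2, Cdx4, Gsx1, Gsx2 and Pdx1), close relatives of Hox genes used in gut and neural tissue, were at 0 in all 7 libraries.

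Of 10 other homeobox genes known from the mammary gland, 7 passed the filter. Irx2 averaged 2338 ± 298 (SD, n = 4) and 2004 ± 616 (SD, n = 3) in the same order, Satb1 130.02 and 111, Msx1 88.8 and 135, and Irx3 41.4 and 34.8. Of 7 tested, 0 passed in the 3 tools, 3 were above and 4 below 0, and the median was −0.051. DESeq2 set no adjusted p for Msx2, Six4 and Dlx3, so these could not pass there. Among genes of the response to retinoic acid, a regulator of low-numbered Hox genes, Rarg averaged 724 and 820, Rara 384 and 547, Rxra 278 and 180, Crabp2 110 and 149, and Rarb 51.9 and 34.003. The list also holds Gmnn, an inhibitor of DNA replication licensing, at 44.8 and 42.6. Rara stood at 868 in a3a6KO replicate 3 against 338 to 432 in the other 6 libraries. Of 6 tested, Gmnn included, 0 passed in the 3 tools, with 3 on each side of 0 and a median of 0.039.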

How the data were processed

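RNA of FACS-sorted mammary basal cells was made into SMARTer v4 libraries, per the labels' protocols, and the 7 libraries were grouped by genotype label. Replicate numbers follow the order of deposition and pair nothing. Each p-value sets the group difference against the spread between these libraries, which limma moderates over all genes tested. The deposited signal, normalised per library by the authors, is on build mm10. Per the submitters' processing notes, the tools were DESeq2, FastQC, Picard, SAMtools and STAR 2.4.0, with no roles given. The counter is not given in the sources used here. Every value was a whole multiple of 1 read within 0.01 reads, which gave back the reads behind 100% of values, and edgeR and DESeq2 then called 0 and 77 genes. In Ctrl replicate 1 a read was worth 1.004, so near 1 that the step is less certain there.

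The main test was limma 3.58.1 in R 4.3.3 (empirical Bayes with trend, log2(value + 1), two-sided, Benjamini-Hochberg over all genes at 10 or more in at least 3 libraries, threshold 0.05). edgeR 4.0.16, DESeq2 1.42.0, other pseudocounts, filters, scalings, library weights and leaving out each library were alternatives. The scripts were tested on simulated data. Members and lists were chosen with earlier results of these data known. Named were the Hox genes past the filter, up to 10 per cluster, and of each other list up to 4 by level and 3 by smallest p. Other members were named after their values were seen. Lengths came from GENCODE M21 and promoters from RefSeq. Phf1, Cbx6, Hoxb3os, Lnpk and Pdgfra matched no row by symbol and were not analysed here. The values of 1 member are not reported here.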

Additional observations from a re-analysis of the deposited data

Results flagged for a closer look

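In 5 of 50 sets of 4 control values, 1 library lay far from the other 3 by Dixon's test, where chance gives about 1 in 20 for separate sets. The sets overlap here, since the HoxB sum holds Hoxb2. Ctrl replicate 1 was high for Hoxb2, at 364, and for the HoxB sum, at 434 against 297 to 319. It was also high for the Polycomb genes Cbx2, at 391, and Phc2, at 1016 against 917.8 to 926. Ctrl replicate 3 was high for Hoxc5, at 20.2 against 6.05 to 8.03. The cause was not tested.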

How the results depend on the processing

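Of 153 fold changes of the 10 Hox genes under the alternatives, 138 kept their sign, 15 reversed and none passed the threshold. Signs held for 5 genes (Hoxa7, Hoxb3, Hoxc5, Hoxc6 and Hoxd10). With library weights the values reversed to −0.25 for Hoxa5, 0.12 for Hoxb2 and 0.47 for Hoxb4. Leaving out 1 library reversed Hoxa5 to −0.11 (Ctrl replicate 3), Hoxb2 to 0.054 (Ctrl replicate 1) and 0.20 (a3a6KO replicate 3), Hoxd8 to −0.095 (Ctrl replicate 1) and Hoxd9 to −0.16 (Ctrl replicate 3) and −0.058 (a3a6KO replicate 2). Hoxb4 reversed to 0.16 in edgeR, 0.15 in DESeq2 and, leaving out 1 library, to 0.022 (Ctrl replicate 1), 0.17 (Ctrl replicate 3), 0.22 (a3a6KO replicate 2) and 0.25 (a3a6KO replicate 3). Leaving out 1 library gave −0.11 to 1.18 for Hoxa5, −0.27 to 0.20 for Hoxb2, −0.66 to 0.25 for Hoxb4, −0.095 to 0.59 for Hoxd8 and −0.16 to 0.40 for Hoxd9. The cause was not tested.

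The median of the members ranged from 0.18 (without Ctrl replicate 2) to 0.46 (library weights). Genes called over all genes were 77 in DESeq2 and 0 in limma. By construction, 25 members passed with no filter and 3 at a minimum of 50. Adding the rows shared by neighbouring Hox genes, or leaving out Hoxa7, both chosen after seeing the data, gave medians of 0.32 and 0.28. No symbol had several rows to sum. No paired analysis was possible because the labels give no replicate numbers. Depth limits the 15 members below the filter most: 1 read is worth 0.756 to 1.78.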
